A study of Mus musculus with 12 samples.

Results

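De novo lipogenesis, the making of fatty acids from acetyl-CoA, was followed through 9 genes in mouse liver: the enzymes Acly, Acss2, Acaca, Acacb, Fasn, Elovl6 and Scd1 and the transcription factors Srebf1 and Mlxipl. The genes were chosen by name as the enzymes and main regulators of the pathway, with earlier results of these data known. All 9 were found among the 28036 genes of the count table, and all 9 passed the filter on low counts that left 13988 genes to test. Livers came from C57BL/6J mice in 4 groups of 3. EE livers came from mice on the high-fat diet model of metabolic dysfunction-associated steatohepatitis (MASH) that were dosed orally with Eleutheroside E, a lignan glycoside found in plants, at 100 mg/kg for the last 4 weeks. Resmetirom livers came from mice on the same model that were dosed orally with resmetirom, which activates thyroid hormone receptor beta, at 3 mg/kg over the same 4 weeks. MASH livers came from model mice given the vehicle, 0.5% CMC-Na, and control livers from mice on normal chow given the same vehicle. Treatment followed 8 weeks of model establishment, and all livers were labelled 12 weeks. The diet fed during treatment and the sex of the mice were not given in the labels. The numbered replicates were not stated to be separate animals, so the p-values measure the spread between these samples.

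In this pathway ATP citrate lyase (Acly) and acetyl-CoA synthetase 2 (Acss2) supply cytosolic acetyl-CoA from citrate and from acetate. The acetyl-CoA carboxylases turn it into malonyl-CoA, fatty acid synthase (Fasn) builds palmitate, Elovl6 lengthens palmitate to stearate, and stearoyl-CoA desaturase 1 (Scd1) introduces a double bond to give mainly oleate and palmitoleate. In liver the pathway is switched on by insulin through SREBP-1c, a product of Srebf1, and by sugar through ChREBP, the product of Mlxipl.

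The elongase Elovl6 was the member whose scaled levels separated the treated livers from the others. It fell in EE livers against control livers and in resmetirom livers against control livers, to 40.5 ± 3.81 CPM in EE livers and 51.7 ± 4.60 CPM in resmetirom livers, against 105 ± 28.8 CPM in control livers (SD, n = 3 each). CPM is the count scaled to the library total, here after the totals were adjusted with edgeR's TMM factors. No other member passed the test in any of the 6 comparisons between groups. Each of the 2 calls of Elovl6 against control was lost in 16 of 28 alternative fits. Fasn, Acaca, Acacb, Acly and Elovl6 lay lower in every EE liver than in every MASH liver, as did 15.5% of all tested genes. None of them passed against MASH when all 12 livers were fitted together. There the edgeR adjusted p of Elovl6 was 0.582 for EE and 0.116 for resmetirom. A gene passed where edgeR's quasi-likelihood test gave an adjusted p (Benjamini-Hochberg over the 13988 genes) below 0.05.

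The 12 libraries held 17297875 to 21793332 counts each. The library of control replicate 1 stood apart with 35.4% of its counts from mitochondrially encoded genes, against 2.40% to 4.38% in the other 11. The library of resmetirom replicate 2 had 35.7% of its counts in major urinary protein genes, against 3.33% to 16.0% in the other 11. Of 8 hepatocyte markers 7 were matched, and each was found in every liver. Their summed level was 96995 to 106200 CPM in EE livers and 60937 to 95455 CPM in resmetirom livers. It was 73700 to 87951 CPM in MASH livers and 82945 to 155474 CPM in control livers. Most of the sum was Alb, and the markers disagreed in control replicate 1. There Alb was at 110648 CPM, against 59240 and 71359 CPM in control replicates 2 and 3. Cps1 was at 676 CPM there, against 4116 and 3538 CPM. The proliferating cell markers summed to 43.9 CPM in resmetirom replicate 1 and to 3.64 and 6.07 CPM in the other resmetirom livers, and the Kupffer cell markers to 734 CPM in resmetirom replicate 1 and 66.5 CPM in control replicate 1. The 6 stellate cell markers summed to 147 to 206 CPM in EE livers, 241 to 271 CPM in MASH livers and 172 to 254 CPM in control livers, lower in every EE than in every MASH liver, and to 620, 159 and 205 CPM in resmetirom replicates 1, 2 and 3. Since the pathway is also active in fat, adipocyte markers were read: 7 of 9 were matched, Plin1 reached at most 0.0749 CPM and Retn at most 0.0423 CPM in any liver, and Cfd was at 0 counts in all 3 resmetirom livers. The 7 summed to 1543 to 1878 CPM in EE livers, 310 to 1456 CPM in resmetirom livers, 1853 to 2422 CPM in MASH livers and 2181 to 2584 CPM in control livers, mostly from Car3, which hepatocytes also express, and the part of any of these markers in the results was not tested. In whole tissue, fewer cells of a type and less RNA per cell cannot be told apart.

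**Figure D1:**
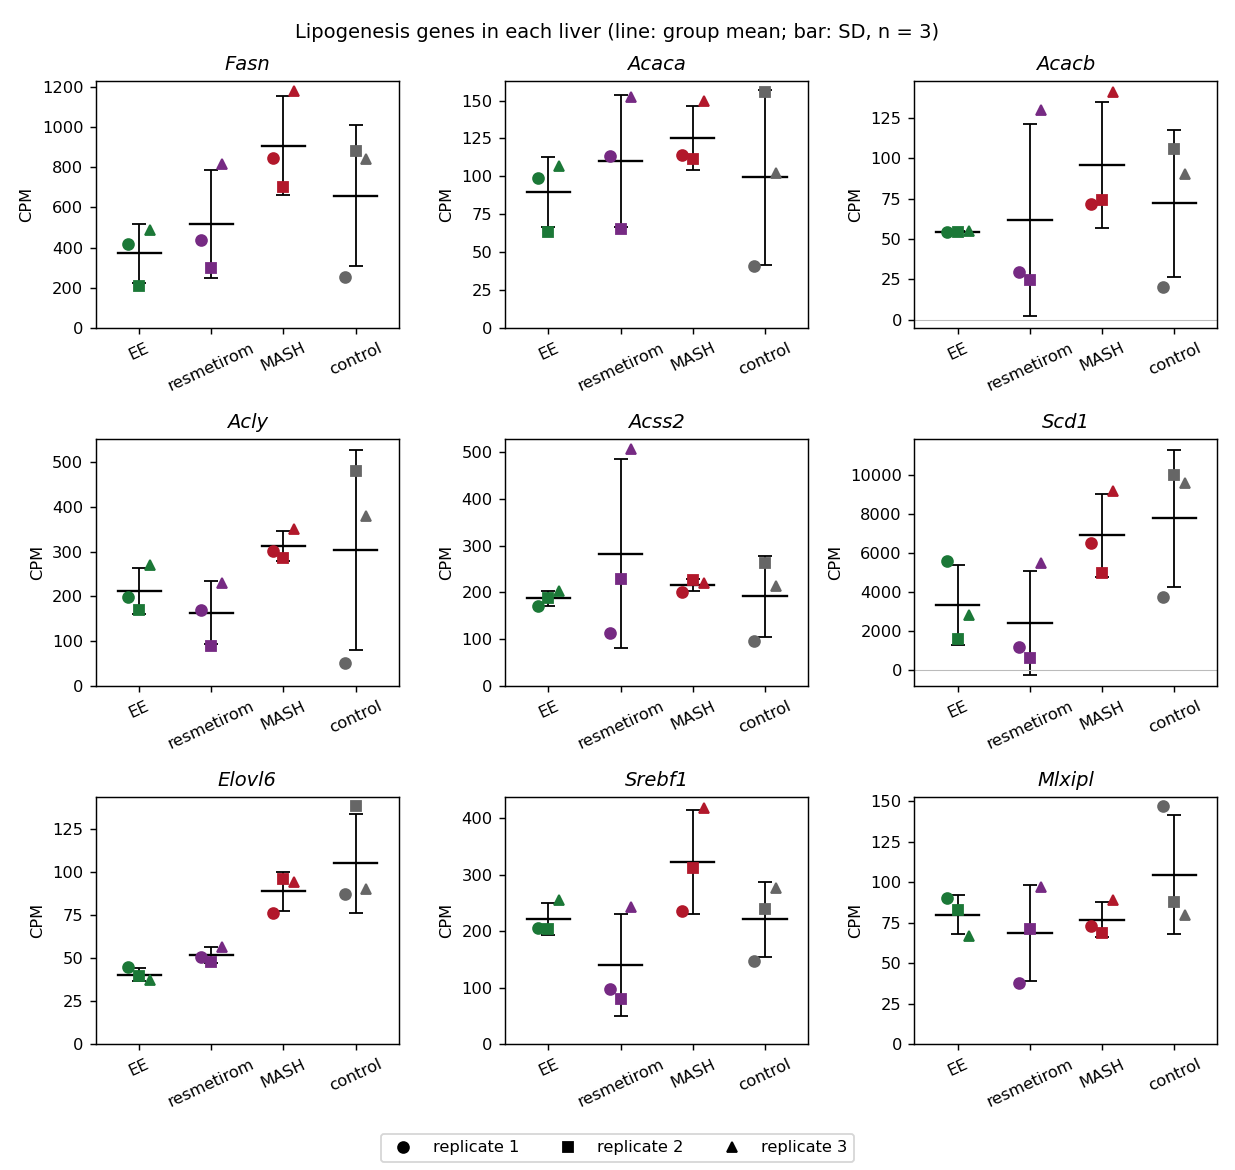
CPM of each of the 9 genes (vertical axis, a panel for each gene) in each liver by group (horizontal axis); symbols mark replicates, lines the group means and bars the SD of 3 livers. In the Elovl6 panel the EE livers (37.1 to 44.6 CPM) and the resmetirom livers (47.7 to 56.7 CPM) lie below all MASH and control livers, and in most other panels resmetirom replicate 3 and control replicate 1 lie far from the other livers of their group.

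The genes differed widely in abundance. Per kilobase of exon, Scd1 had by far the most transcript, at 683 ± 415 CPM per kilobase in EE livers, 495 ± 542 in resmetirom livers, 1407 ± 434 in MASH livers and 1585 ± 711 in control livers. Fasn averaged 33.8 ± 13.4 CPM per kilobase in EE livers and 83.03 ± 22.6 in MASH livers, and Acly 40.3 ± 9.80 in EE livers and 59.2 ± 6.49 in MASH livers. Elovl6 stood at 6.29 ± 0.592 CPM per kilobase in EE livers and 13.8 ± 1.74 in MASH livers. The carboxylases were as low, with Acaca at 5.25 ± 1.37 CPM per kilobase in EE livers and Acacb at 5.67 ± 0.0279. The summed level of the 7 enzymes in CPM therefore mostly followed Scd1, which made up 44.7% of it in resmetirom replicate 2 and 87.3% of it in control replicate 1, the ends of its range over the 12 livers.

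**Figure D2:**
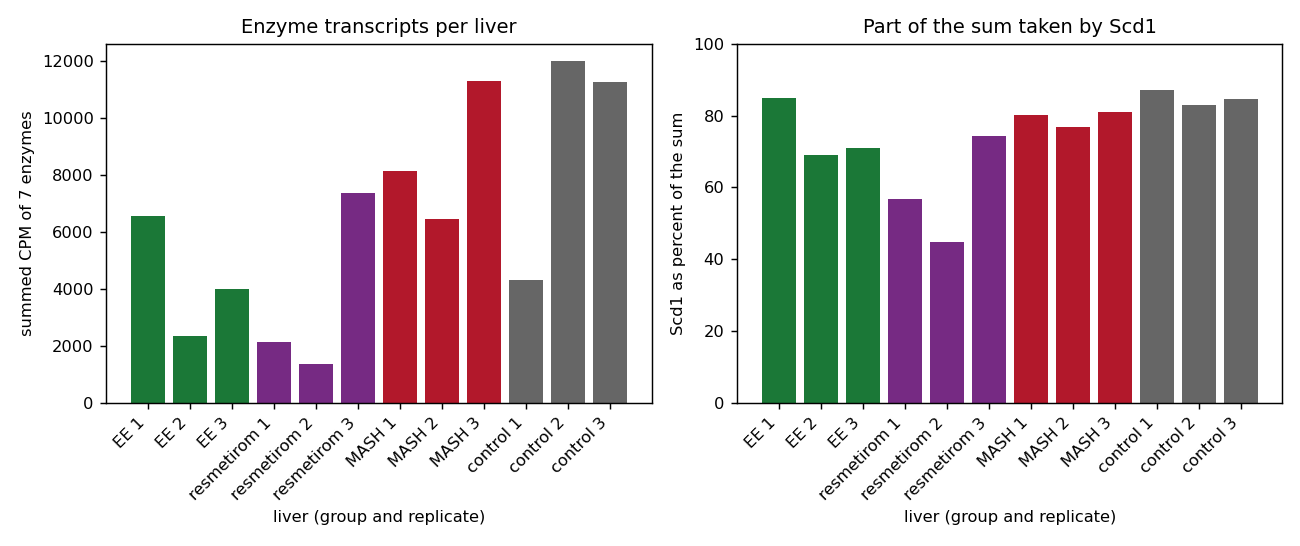
Summed CPM of the 7 enzymes (left panel, vertical axis) and Scd1 as a percent of that sum (right panel, vertical axis) in each of the 12 livers (horizontal axis, coloured by group). The sum ran from 2327 to 6561 CPM in EE livers, 1361 to 7357 CPM in resmetirom livers, 6466 to 11306 CPM in MASH livers and 4294 to 12006 CPM in control livers, and in the right panel control replicate 1 has the highest share (87.3%) and resmetirom replicate 2 the lowest (44.7%).

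Elovl6 (ENSMUSG00000041220) is described first because it carried the result. It had 44.6, 39.7 and 37.1 CPM in EE livers, 50.7, 47.7 and 56.7 CPM in resmetirom livers, 76.0, 96.2 and 94.6 CPM in MASH livers and 87.3, 139 and 90.04 CPM in control livers. After TMM scaling the EE livers were the 3 lowest of the 12 and the resmetirom livers the next 3, while the MASH and control livers overlapped. The TMM factor was 0.509 for control replicate 1, 0.993 for EE replicate 1 and 1.413 for resmetirom replicate 1. Control replicate 1 and EE replicate 1 each had 869 counts of Elovl6, in totals of 19600134 and 19630587. Resmetirom replicate 1 had 1316 in 18409211. Before scaling, control replicate 1 thus did not lie clear of these treated livers. The order of the group means was EE, resmetirom, MASH and control. The groups did not overlap in 5 of the 6 comparisons, more than for any other member: Acly was separated in 2, Fasn, Acaca and Acacb in 1 each, and Acss2, Scd1, Srebf1 and Mlxipl in 0. In each of these 5 comparisons, 9.09% to 15.5% of all tested genes also lay lower without overlap. How many genes did so in all 5 was not counted. The comparisons share livers, so the 5 are not separate results.

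The fitted log2 fold change of Elovl6 was -1.38 ± 0.22 (SE) for EE against control (edgeR, adjusted p = 0.0387) and -1.03 ± 0.21 for resmetirom against control (edgeR, adjusted p = 0.0296). It was 1 of 9 members called in each comparison, where 0.1% of all tested genes were called for EE against control and 3.16% for resmetirom against control. Against MASH livers the log2 fold change was -1.14 ± 0.21 for EE (adjusted p = 0.582) and -0.78 ± 0.21 for resmetirom (adjusted p = 0.116), neither of which passed. For EE against MASH the unadjusted p of 0.000182 ranked 4 of the 13988 genes, and 1 gene in all passed. The neighbours in the order of levels were not told apart by the test: EE against resmetirom gave -0.35 ± 0.21 (adjusted p = 0.570) and MASH against control -0.24 ± 0.21 (adjusted p = 0.749). In the test for any difference among the 4 groups, which called 1.6% of genes, Elovl6 had an adjusted p of 0.0235 and was again the only member to pass.

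The call for EE against control depended on single livers. It was lost in 9 of the 12 fits that left out 1 liver, with adjusted p of 0.0679 to 0.360, and held without resmetirom replicate 1, resmetirom replicate 2 or control replicate 1. The libraries whose removal ended it were MASH replicates 1, 2 and 3, EE replicates 1, 2 and 3, resmetirom replicate 3 and control replicates 2 and 3. The call for resmetirom against control was lost in 10 of 12, with adjusted p of 0.0501 to 0.0817, and held without resmetirom replicate 3 or control replicate 1. The log2 fold change of Elovl6 stayed negative throughout: over 28 alternative fits it ran between -1.50 and -1.12 for EE against control, between -1.14 and -0.74 for resmetirom against control and between -1.43 and -0.89 for EE against MASH. In all, 16 of the 28 alternatives lost the call in each of the 2 comparisons with control. For EE against control the adjusted p of Elovl6 was 0.0587 with the replicate block, 0.160 in the fit of only those groups, 0.168 with offsets for length and GC content and 0.685 without scaling factors. For resmetirom against control it was 0.311 in the fit of only those groups, 0.101 with offsets and 0.435 without scaling factors. Without control replicate 1 and resmetirom replicate 2, the libraries that stood apart, Elovl6 passed for EE against control (adjusted p = 0.0119), and also for EE against MASH (adjusted p = 0.0359).

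**Figure D3:**
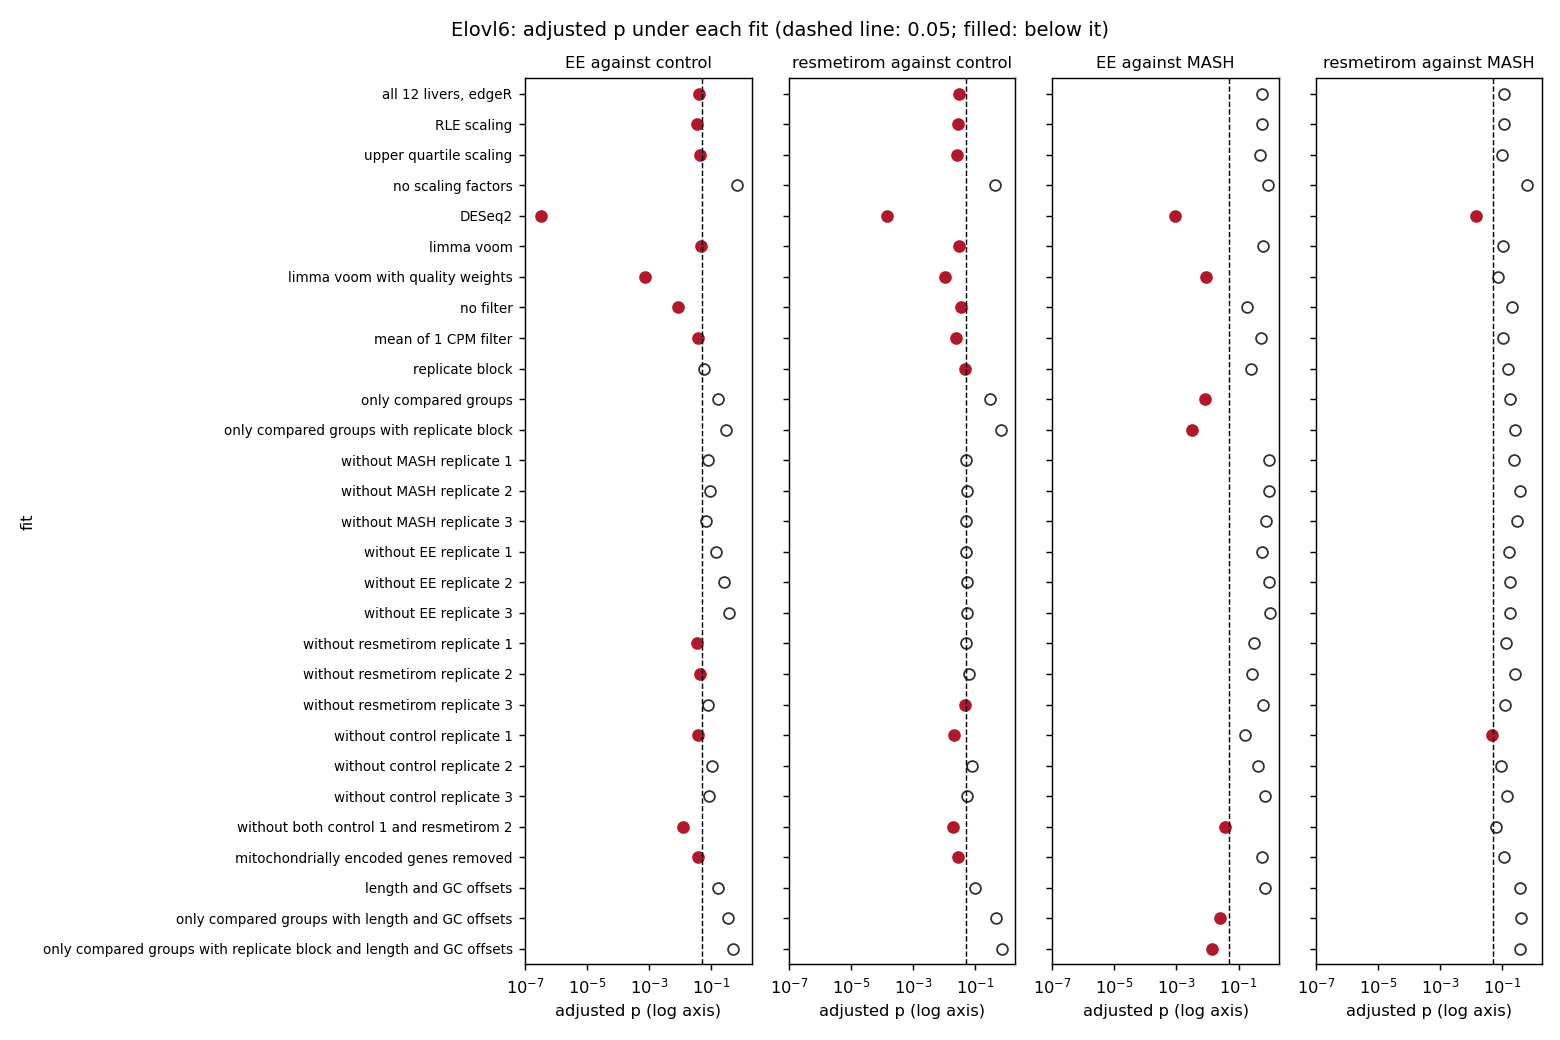
Adjusted p of Elovl6 (horizontal axis, log scale) under each of the fits (vertical axis) in 4 comparisons; the dashed line marks 0.05, and filled points lie below it. For EE against control and resmetirom against control the points lie close to the line in most fits that leave out 1 liver, and for EE against MASH DESeq2 (0.000869), voom with quality weights (0.00875) and the fits of only EE and MASH livers lie below it.

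The 250 bases before the RefSeq start of Elovl6 (GRCm38.p6, chr3:129532136-129532385, plus strand) are shown because this member alone passed the test. The window was searched on both strands for an E-box (CACGTG, the core of the sites used by ChREBP and USF factors), a sterol response element (TCACNCCAC), a CCAAT box (CCAAT, the site of NF-Y), a GC box (GGGCGG, the site of Sp1) and a direct repeat spaced by 4 bases (GGTNA, then 5 bases of any kind, then GGTNA, a loose form of the site of liver X and thyroid hormone receptors). None of these letters occurred in it, which says nothing about binding of any factor. Among 32851 mouse promoter windows of the same length, 6.02% held the E-box, 1.05% the sterol response element, 33.8% the CCAAT box, 32.7% the GC box and 0.621% the direct repeat.
Elovl6: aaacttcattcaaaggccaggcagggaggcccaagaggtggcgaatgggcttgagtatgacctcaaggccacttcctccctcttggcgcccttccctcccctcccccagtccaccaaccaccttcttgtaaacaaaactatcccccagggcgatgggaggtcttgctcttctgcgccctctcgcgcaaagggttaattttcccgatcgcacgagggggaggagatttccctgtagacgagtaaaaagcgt

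Of the acetyl-CoA suppliers, Acly (ENSMUSG00000020917) was lower in every EE and resmetirom liver than in every MASH liver, and neither difference passed the test. Acly had 198, 170 and 270 CPM in EE livers, 170, 89.4 and 231 CPM in resmetirom livers, 302, 285 and 351 CPM in MASH livers and 51.8, 480 and 380 CPM in control livers. Control replicate 1 was the lowest of all 12 livers and control replicate 2 the highest, so the control group spanned 9.27-fold. For Acly the log2 fold change was -0.56 ± 0.59 for EE against MASH (adjusted p = 0.866) and -0.93 ± 0.59 for resmetirom against MASH (adjusted p = 0.478). Against control livers it was -0.52 ± 0.59 for EE and -0.89 ± 0.59 for resmetirom, and without control replicate 1 the value of Acly for resmetirom against control was -1.39 and passed (adjusted p = 0.0437). Leaving out this lowest control liver deepens the fall, and it was the only pass in the 12 fits that left out 1 liver (up to 0.755).

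Acss2 (ENSMUSG00000027605), which uses acetate, had 170, 189 and 203 CPM in EE livers, 113, 230 and 507 CPM in resmetirom livers, 201, 228 and 220 CPM in MASH livers and 95.3, 264 and 215 CPM in control livers. The EE and MASH livers were tight, the resmetirom livers spanned 4.50-fold, and the groups overlapped in all 6 comparisons. The log2 fold change was -0.21 ± 0.46 for EE against MASH (adjusted p = 0.938) and 0.39 ± 0.46 for resmetirom against MASH (adjusted p = 0.720). Without resmetirom replicate 3 this value of Acss2 was -0.35, so that liver set its sign.

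The acetyl-CoA carboxylases are the cytosolic Acaca (ENSMUSG00000020532), which feeds fatty acid synthesis, and Acacb (ENSMUSG00000042010), whose product at the mitochondrial surface restrains fatty acid oxidation. Acaca had 99.1, 63.0 and 107 CPM in EE livers, 114, 65.1 and 152 CPM in resmetirom livers, 114, 112 and 150 CPM in MASH livers and 40.5, 156 and 102 CPM in control livers. Acacb had 54.4, 54.6 and 54.9 CPM in EE livers, 29.5, 24.9 and 130 CPM in resmetirom livers, 71.9, 74.2 and 141 CPM in MASH livers and 20.6, 106 and 90.04 CPM in control livers. Every EE liver lay below every MASH liver for both genes, and the other pairs of groups overlapped. The EE livers were nearly identical for Acacb, with a coefficient of variation of 0.492%, against 96.6% in resmetirom livers, 40.9% in MASH livers and 62.9% in control livers. The EE values came from 1059, 1002 and 951 counts, and whether the spread differed between groups was not tested. For EE against MASH the log2 fold change was -0.48 ± 0.43 for Acaca (adjusted p = 0.836) and -0.81 ± 0.64 for Acacb (adjusted p = 0.819).

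Fasn (ENSMUSG00000025153), the synthase itself, had 418, 206 and 488 CPM in EE livers, 440, 296 and 815 CPM in resmetirom livers, 845, 700 and 1182 CPM in MASH livers and 252, 884 and 843 CPM in control livers. The EE livers lay below all MASH livers, while resmetirom replicate 3 reached into the MASH range and control replicate 1 lay below 5 of the 6 treated livers. The log2 fold change was -1.29 ± 0.51 for EE against MASH, with an unadjusted p of 0.0257 and an adjusted p of 0.625. For resmetirom against MASH it was -0.81 ± 0.50 (adjusted p = 0.470), and for MASH against control 0.46 ± 0.50 (adjusted p = 0.796).

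The window before the Fasn start (GRCm38.p6, chr11:120824548-120824797, minus strand) is shown beside that of Srebf1 because both held the rare direct repeat. Capitals mark motif matches. In Fasn they are the direct repeat on the reverse strand at bases -225 to -211, and CCAAT boxes at -90 to -86, -62 to -58 and -59 to -55, of which the last pair overlap. In Srebf1 (GRCm38.p6, chr11:60210472-60210721, minus strand, 1 of 3 annotated starts searched) they are the direct repeat on the reverse strand at -182 to -168, GC boxes at -65 to -60 and -6 to -1, and a CCAAT box at -30 to -26. The window of Acly (GRCm38.p6, chr11:100528001-100528250, minus strand), a gene that was separated between EE and MASH livers as Fasn was, held 4 GC boxes and no other match. In all, 8 members had 11 windows, and Scd1 had none. Of the 11, 2 held the direct repeat, 6 a CCAAT box, 5 a GC box, 1 an E-box and 1 a sterol response element. In the same order, 0.621%, 33.8%, 32.7%, 6.02% and 1.05% of the 32851 mouse windows held such a match. These are matches of letters and not sites, and the deposited files hold gene counts and not binding.
Fasn: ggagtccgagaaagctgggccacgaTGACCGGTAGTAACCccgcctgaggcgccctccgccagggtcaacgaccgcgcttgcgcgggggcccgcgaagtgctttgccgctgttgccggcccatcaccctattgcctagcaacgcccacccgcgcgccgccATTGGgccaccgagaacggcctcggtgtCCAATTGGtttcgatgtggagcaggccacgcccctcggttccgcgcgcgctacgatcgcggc
Srebf1: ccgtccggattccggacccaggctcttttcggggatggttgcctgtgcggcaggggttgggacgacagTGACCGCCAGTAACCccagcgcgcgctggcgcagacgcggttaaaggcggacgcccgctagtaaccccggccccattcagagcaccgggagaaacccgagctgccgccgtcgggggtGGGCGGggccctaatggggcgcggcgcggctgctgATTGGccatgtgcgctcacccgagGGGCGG
Acly: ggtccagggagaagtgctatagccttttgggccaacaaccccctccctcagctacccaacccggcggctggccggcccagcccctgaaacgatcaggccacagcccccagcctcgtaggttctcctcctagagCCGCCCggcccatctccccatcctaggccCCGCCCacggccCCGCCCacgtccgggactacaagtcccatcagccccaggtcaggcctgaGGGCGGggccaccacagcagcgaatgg

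Scd1 (ENSMUSG00000037071), the desaturase, had 5577, 1606 and 2842 CPM in EE livers, 1198, 608 and 5465 CPM in resmetirom livers, 6513, 4972 and 9168 CPM in MASH livers and 3747, 9977 and 9542 CPM in control livers. EE replicate 1 and resmetirom replicate 3 lay above the lowest MASH liver, so neither treated group was separated from MASH. The log2 fold change was -1.04 ± 0.73 for EE against MASH (adjusted p = 0.798) and -1.51 ± 0.74 for resmetirom against MASH (adjusted p = 0.361). Against control livers it was -1.21 ± 0.73 for EE (adjusted p = 0.426) and -1.68 ± 0.74 for resmetirom (adjusted p = 0.201). Without resmetirom replicate 3, the highest liver of its group, the change of Scd1 for resmetirom against control was -3.11 and passed (adjusted p = 0.0397). Leaving out the highest liver deepens the fall, and this was the only pass in the 12 fits that left out 1 liver (up to 0.351).

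Of the regulators, Srebf1 (ENSMUSG00000020538) encodes SREBP-1a and SREBP-1c, which gene counts do not tell apart. It had 206, 203 and 254 CPM in EE livers, 97.4, 79.3 and 243 CPM in resmetirom livers, 236, 312 and 418 CPM in MASH livers and 148, 238 and 276 CPM in control livers. Resmetirom replicates 1 and 2 were the lowest 2 of the 12 livers, and resmetirom replicate 3 lay within the MASH range. For resmetirom against MASH the log2 fold change was -1.20 ± 0.40 (adjusted p = 0.199), and without resmetirom replicate 3 that of Srebf1 was -1.87 and passed (adjusted p = 0.0297). Leaving out this highest resmetirom liver deepens the fall, and it was the only pass in the 12 fits that left out 1 liver (up to 0.465). For EE against MASH the log2 fold change of Srebf1 was -0.54 ± 0.40 (adjusted p = 0.810), and for EE against control 0.00 ± 0.40 (adjusted p = 0.999).

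Mlxipl (ENSMUSG00000005373), which encodes the alpha and beta forms of ChREBP, had 90.5, 82.6 and 66.7 CPM in EE livers, 37.7, 71.1 and 96.7 CPM in resmetirom livers, 72.7, 68.6 and 89.1 CPM in MASH livers and 147, 87.5 and 79.6 CPM in control livers. The groups overlapped in every comparison. Control replicate 1 was the highest of the 12 livers for Mlxipl and the lowest for Acly, Acaca, Acacb and Acss2. For Mlxipl the log2 fold change was 0.06 ± 0.33 for EE against MASH (adjusted p = 0.976) and -0.17 ± 0.33 for resmetirom against MASH (adjusted p = 0.842).

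**Figure D4:**
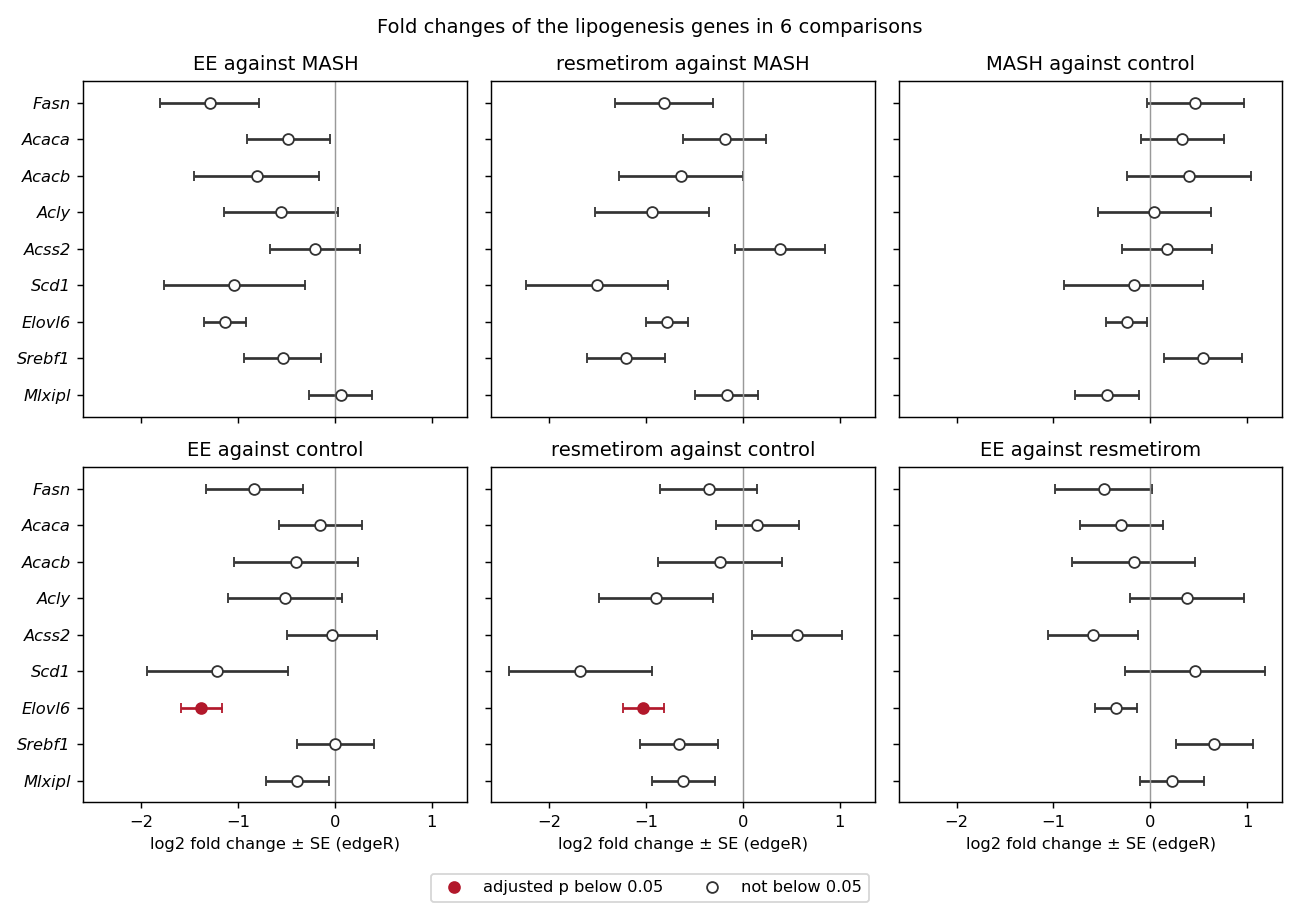
Log2 fold change with SE (horizontal axis) of each of the 9 genes (vertical axis) in the 6 comparisons, from edgeR with all 12 livers in 1 fit; filled points passed the adjusted p of 0.05. Only Elovl6 is filled, in EE against control (-1.38) and resmetirom against control (-1.03), and its error bars are the shortest.

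The question whether Eleutheroside E lowered the pathway in the diet model is addressed by EE against MASH. Of the 9 members 8 had a negative log2 fold change, with a median of -0.56 against -0.02 over all tested genes. None passed edgeR with all 12 livers, where 0.00715% of genes were called, and limma voom called none either. DESeq2 called 1, Elovl6 (adjusted p = 0.000869), among 0.2% of genes. In edgeR 2 members, Fasn and Elovl6, had an unadjusted p below 0.05, as 7.5% of all genes did. Fasn, Acaca, Acacb, Acly and Elovl6, 5 of the 9, lay lower in every EE liver than in every MASH liver, as did 15.5% of all genes. The summed level of the stellate cell markers was also lower in every EE liver than in every MASH liver. Singly, Reln, Lrat and Colec11 overlapped between these groups, and the part of the markers in these differences was not tested. In a fit of the EE and MASH livers alone, Elovl6 passed (log2 fold change -1.14, adjusted p = 0.00821), among 5.62% of genes.

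In these data equally numbered EE and MASH livers deviated together, so the replicate number was also used as a block. The labels do not say what the numbers share. A block read from the same data that it is used on gives no separate support to its calls. With all 12 livers in the fit the block left 0 members called, and the adjusted p was 0.248 for Elovl6 and 0.507 for Fasn. With the block and only the EE and MASH livers, 5 members passed and all were lower: Elovl6 (log2 fold change -1.14, adjusted p = 0.00321), Fasn (-1.36, 0.00386), Acly (-0.59, 0.00531), Srebf1 (-0.52, 0.0163) and Acaca (-0.51, 0.0242). That fit called 2746 genes, 20.7% of the 13248 it tested, so a call in it was common. Acss2, Acacb, Scd1 and Mlxipl did not pass there, with adjusted p of 0.0642 for Acss2, 0.123 for Acacb, 0.143 for Scd1 and 0.856 for Mlxipl.

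For resmetirom against MASH, 8 of the 9 log2 fold changes were negative as well, with a median of -0.78 against 0.06 over all tested genes, and Acss2 was the exception. No member passed edgeR or limma voom, where edgeR called 0.665% of genes, and 2 members, Elovl6 and Srebf1, had an unadjusted p below 0.05, as 15% of all genes did. Acly and Elovl6 did not overlap between the groups, both lower in resmetirom livers, as 12.3% of all genes were. Elovl6 passed with DESeq2 (adjusted p = 0.0144), among 657 of all 13988 genes. In edgeR it passed without control replicate 1 (adjusted p = 0.0462), among 431 of 14299 genes. That was the only pass in the 12 fits that left out 1 liver.

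The resmetirom livers were split for this pathway. The median difference of the 9 members from their own means over the 12 livers was -0.84 on the log2 scale in resmetirom replicate 1, -0.86 in replicate 2 and 0.50 in replicate 3. Replicate 3 lay above the mean for 8 of the 9 members, and only Elovl6 was below it. Resmetirom replicate 2 carried the high share of major urinary protein counts and resmetirom replicate 1 the high macrophage, stellate cell and proliferation markers described above, and their part in these levels was not tested.

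MASH against control, the effect of the diet model, gave no call among the members by edgeR, DESeq2 or limma voom, where edgeR called 0.0143% of genes, and 0 members had an unadjusted p below 0.05, as 9.23% of all genes did. Of the 9 log2 fold changes 6 were positive, with a median of 0.18 against -0.02 over all tested genes, and the largest was that of Srebf1 (0.54 ± 0.40, adjusted p = 0.709). No member was separated between the groups, against 10.2% of genes separated upward and 9.41% downward. Control replicate 1, with its mitochondrial counts, had the lowest level of 4 members and was 1.08 below the members' means in the median on the log2 scale, while control replicates 2 and 3 were 0.72 and 0.45 above. Without control replicate 1 the log2 fold change for MASH against control was -0.03 for Acaca, -0.03 for Acacb, -0.45 for Acly and -0.14 for Acss2, each positive with it.

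Against control livers, 8 members had a negative log2 fold change for EE (median -0.41 against -0.06 over all genes) and 7 for resmetirom (median -0.61 against 0.02). Elovl6 was the only member separated in either, where 13.5% of genes lay lower without overlap in EE livers and 10.9% in resmetirom livers. EE and resmetirom livers differed in no member by edgeR, DESeq2 or limma voom, where edgeR called 0.307% of genes, and 0 members had an unadjusted p below 0.05, as 11.8% of all genes did. The median log2 fold change was -0.17 against -0.08 over all genes. Elovl6 alone was separated between EE and resmetirom livers, lower in EE, as were 9.09% of genes. The 6 comparisons share the EE, resmetirom, MASH or control livers with one another and are not independent.

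**Figure D5:**
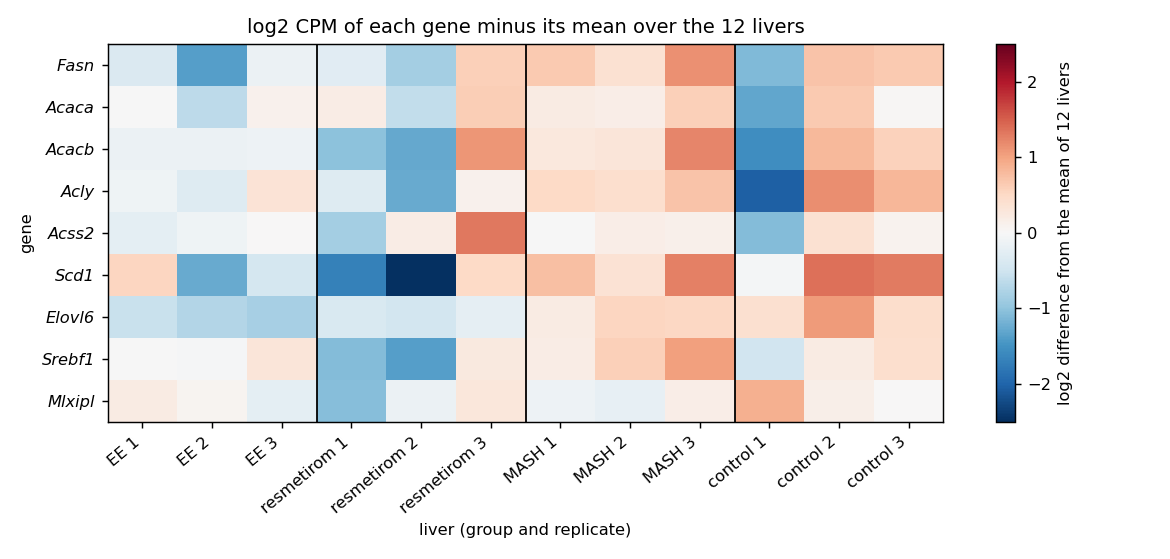
Log2 CPM of each gene (vertical axis) minus its mean over the 12 livers, in each liver (horizontal axis, ordered EE, resmetirom, MASH, control); red is higher and blue lower. Resmetirom replicates 1 and 2 and control replicate 1 form blue columns with medians of -0.84, -0.86 and -1.08, and the Elovl6 row alone is blue across all EE and resmetirom livers.

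Most members moved together over the 12 livers. The Pearson correlation of a member with the mean of the other members over the 12 livers was 0.93 for Acacb, 0.86 for Fasn, 0.85 for Scd1, 0.81 for Srebf1 and 0.77 for Acly. It was 0.70 for Acaca, 0.54 for Acss2, 0.51 for Elovl6 and 0.08 for Mlxipl. After the group means were subtracted it was 0.97 for Acacb, 0.58 for Elovl6 and -0.04 for Mlxipl. For most members the shared pattern was thus not only a difference between groups. Control replicate 1 and resmetirom replicate 3, far from their groups for most members, enter these values, and no value without both was computed. Within the EE livers the members did not all follow the same order. Replicate 2 was the lowest EE liver for Fasn, Acaca, Acly, Scd1 and, by little, Srebf1, but not for the other members. There Acacb was flat, Scd1, Elovl6 and Mlxipl were highest in replicate 1, and Fasn, Acaca, Acly, Acss2 and Srebf1 in replicate 3. The low value of Mlxipl rested on control replicate 1: without that liver its correlation with the mean of the others was 0.52, against 0.67 for Elovl6 and 0.95 for Acacb. Between single members, Acaca with Acly had 0.866 and Fasn with Acaca 0.865 over the 12 livers, and 0.734 and 0.877 without control replicate 1. These values share libraries and scaling factors and are descriptions only.

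The genes most like the members' mean pattern, of 11768 compared over the 12 livers, were Fzd4 (r = 0.95), Fnip2 (0.91), Cep68 (0.91), Rreb1 (0.90), Rmdn2 (0.90) and Pacsin2 (0.89). Fzd4, a receptor for Wnt ligands, averaged 21.5 CPM in EE livers, 21.3 CPM in resmetirom livers, 34.3 CPM in MASH livers and 26.3 CPM in control livers. Fnip2, a partner of folliculin, averaged 21.98 CPM in EE livers, 16.6 CPM in resmetirom livers, 29.6 CPM in MASH livers and 28.4 CPM in control livers.

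Around the pathway, 26 genes were read that supply its carbon and reducing power or process its products. By edgeR 0 of them passed in MASH against control, EE against MASH, EE against control and EE against resmetirom, where 3, 4, 1 and 9 had an unadjusted p below 0.05 (9.23%, 7.5%, 16.1% and 11.8% of all genes did). DESeq2 called 0 in the first 3 of these and 5 in EE against resmetirom, among 411 of all 13988 genes. In the same comparisons limma voom called 0 and 1, the latter among 30 of all genes. In resmetirom against MASH edgeR called 1 gene, which was lower, among 0.665% of all genes. There 10 had an unadjusted p below 0.05 (15% of all genes did). DESeq2 called 4 lower and 1 higher, among 657 of all 13988 genes. In resmetirom against control edgeR called 1 lower, among 3.16% of all genes. There 11 had an unadjusted p below 0.05 (22.9% of all genes did). DESeq2 called 4 higher and 3 lower, among 1553 of all 13988 genes. Acsl1, which activates long-chain fatty acids, fell in resmetirom livers to 395 ± 112 CPM, against 947 ± 14.5 CPM in MASH livers (log2 fold change -1.26 ± 0.24, adjusted p = 0.0435). The call of Acsl1 was lost in 10 of the 12 fits that left out 1 liver, with adjusted p of 0.0542 to 0.168, and held only without resmetirom replicate 3 or control replicate 1. Elovl5, an elongase of polyunsaturated fatty acids, had 379 ± 144 CPM in EE livers and 834 ± 99.2 CPM in MASH livers (adjusted p = 0.610), and its MASH livers lay above all control livers, at 379 ± 29.3 CPM (adjusted p = 0.517).

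Of the 26 genes, 8 lay lower and 3 higher without overlap in EE livers against MASH livers, where 15.5% of all genes lay lower and 16.7% higher. In resmetirom livers against MASH livers 9 lay lower and 1 higher, where 12.3% of all genes lay lower and 11.6% higher, and in MASH livers against control livers 10 lay higher and 0 lower, where 10.2% and 9.41% of all genes did. Gpam, which starts glycerolipid synthesis, had 202 ± 49.5 CPM in EE livers and 370 ± 24.2 CPM in MASH livers (adjusted p = 0.664). Pklr, the liver pyruvate kinase and a ChREBP target, had 130 ± 76.0 CPM in resmetirom livers and 339 ± 55.1 CPM in MASH livers (adjusted p = 0.137). G6pdx, which makes NADPH, went the other way with 8.62 ± 1.02 CPM in resmetirom livers and 4.84 ± 0.647 CPM in MASH livers (adjusted p = 0.122). The median log2 fold change of the 26 genes was 0.39 for MASH against control, -0.29 for EE against MASH and -0.16 for resmetirom against MASH, beside -0.02, -0.02 and 0.06 over all tested genes.

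Among 33 regulators of SREBP and ChREBP activity and of insulin and thyroid hormone signalling, 1 passed edgeR in resmetirom against MASH and 2 in resmetirom against control, all higher, where 0.665% and 3.16% of all genes were called. DESeq2 called 1 higher in resmetirom against MASH, among 657 of all 13988 genes. In resmetirom against control it called 3 higher and 3 lower, among 1553 of all genes. Irs2, an adaptor of the insulin receptor, rose in resmetirom livers to 21.6 ± 2.43 CPM, against 10.1 ± 1.11 CPM in MASH livers (log2 fold change 1.09 ± 0.21, adjusted p = 0.0439) and 10.1 ± 2.56 CPM in control livers (1.09 ± 0.21, adjusted p = 0.0255). Srebf2, which drives cholesterol synthesis genes, rose in resmetirom livers to 89.5 ± 13.4 CPM, against 42.9 ± 8.86 CPM in control livers (1.06 ± 0.21, adjusted p = 0.0237). The calls were lost without resmetirom replicate 3 or control replicate 2 for Srebf2 (adjusted p = 0.0719 at most), and without resmetirom replicate 2 or control replicate 3 for Irs2 against control (0.0781 at most). That of Irs2 against MASH was lost in 8 of 12 such fits (0.0653 to 0.194), and held without resmetirom replicate 1 or any of the control livers. No regulator passed edgeR in the other 4 comparisons. In MASH against control, EE against MASH, EE against control and EE against resmetirom, 5, 4, 9 and 5 had an unadjusted p below 0.05. Of all genes 9.23%, 7.5%, 16.1% and 11.8% did. In these comparisons DESeq2 called only Nr1h3 and Prkaa1, both in EE against control, among 591 of all 13988 genes.

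Of the 33 regulators, 12 lay higher and 5 lower without overlap in EE livers against MASH livers, where 16.7% of all genes lay higher and 15.5% lower. Against control livers 5 lay higher and 6 lower, where 13.7% of all genes lay higher and 13.5% lower. None of these passed edgeR. Nr1h3, which encodes liver X receptor alpha, an activator of Srebf1, had 113 ± 4.52 CPM in EE livers, 83.5 ± 7.07 CPM in MASH livers and 76.2 ± 3.03 CPM in control livers (adjusted p = 0.634 against MASH and 0.182 against control). Insig1, which holds SREBP in the endoplasmic reticulum, had 154 ± 34.9 CPM in EE livers and 288 ± 51.8 CPM in control livers (adjusted p = 0.212). Lpin1, a phosphatidate phosphatase that also restrains SREBP, had 197 ± 113 CPM in EE livers and 59.0 ± 6.25 CPM in MASH livers (adjusted p = 0.610). The median log2 fold change of the 33 genes was 0.02 for EE against MASH and 0.07 for resmetirom against MASH, beside -0.02 and 0.06 over all tested genes.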

How the data were processed

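Polyadenylated RNA of 12 mouse livers was sequenced from stranded libraries, per the labels' protocols. The deposited table holds expected counts per gene, which the authors did not scale. Between 91.47% and 93.33% of the values of a library were whole, and they were rounded. The submitters' processing notes name fastp and the build GRCm39; which aligner, counter, annotation and strand setting were used is not given in the sources used here. Symbols came from an annotation of GRCm38 (GENCODE), which named 22603 identifiers and left 5433 without a name, and exon lengths from the same source. Promoter windows came from RefSeq (GRCm38.p6), and no coordinates were moved between builds. All libraries were used, and no library was dropped or imputed in the main fit.

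The main test was the robust quasi-likelihood F test of edgeR 4.0.16 (R 4.3.3) after filterByExpr and TMM scaling, in 1 fit of all 12 livers with 8 residual degrees of freedom. SE values were taken as the absolute log2 fold change over the root of F. Where no tool is named, the adjusted p is that of edgeR, and calls needed one below 0.05. The alternatives were other scalings, other filters, DESeq2 1.42.0, limma 3.58.1 voom with and without quality weights, only the compared groups, the replicate block, removal of mitochondrial genes and leaving out libraries. Offsets for length and GC content were added after seeing the data. All 9 members are named throughout, with up to 4 genes per list and comparison by smallest p, from which examples are given (a gene of these lists is not reported here), and the 6 genes most correlated with the members' mean. Members, gene lists and markers were chosen with earlier results of these data known.

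The replicate numbers come from the sample titles. Deviations from the group means of equally numbered EE and MASH livers correlated with r of 0.19, 0.158 and 0.149 over the tested genes. Each was above 0.1, and on that ground alone these livers were treated as paired. The labels do not say what the numbers share. Unequally numbered livers of other groups reached more, with 0.477 for resmetirom replicate 2 and control replicate 1. The fits were tested on simulated data with known changes.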

Additional observations from a re-analysis of the deposited data

How the results depend on the processing

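With 3 livers a group and gene counts that hold no isoforms, the precision was set by the spread among livers. In data simulated for each of the 6 comparisons, 55% to 67% of 4-fold and 6.1% to 11% of 2-fold changes were called in the fit of all 12 libraries, and 48.4% to 72% and 1.1% to 6.2% in fits of only the compared groups. Each fold was given to 100 genes, and 1 to 5 and 1 to 7 unchanged genes were called. The simulated data held no libraries that stood apart like control replicate 1 or resmetirom replicate 2, so the rates may not hold for these data. Of 54 pairs of a member and a comparison, 28 kept the direction of the log2 fold change under all 28 alternatives. Of 1512 values, 1372 kept both direction and side of the threshold, 83 turned direction, 32 lost the call and 25 gained it. The cause was not tested. All 32 losses were of Elovl6 against control livers. Without scaling factors the median of all genes moved to 0.37 on the log2 scale for MASH against control, -0.32 for EE against MASH, -0.13 for resmetirom against MASH, 0.22 for resmetirom against control and -0.17 for EE against resmetirom.

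Members called for EE against MASH numbered 0, but 1 with DESeq2, 2 with voom and quality weights, 1 in only the compared groups (5 with the replicate block, 1 with length and GC offsets, 4 with both), 1 without control 1 and resmetirom 2 together, and 0 in each fit that left out 1 liver. For resmetirom against MASH there were 0, but 1 with DESeq2 and 0 to 1 with a liver left out. For EE against control there was 1, but 4 with quality weights, 2 without both libraries, and 0 without scaling factors, in only the compared groups with or without a block, with the replicate block in all 12 livers, and with offsets in each of the 3 fits, and 0 to 1 with a liver left out. For resmetirom against control there was 1, but 2 without both libraries and 0 without scaling factors, in only the compared groups with or without the block, and with offsets in each of the 3 fits, and 0 to 2 with a liver left out. The fits with 2 members, without resmetirom replicate 3 or without control replicate 1, called 385 and 684 of all genes. For any of the 4 groups there was 1, but 3 with quality weights, 2 without both libraries, 0 without scaling factors, 0 with offsets, and 0 to 1 with a liver left out. Of all genes, quality weights called 1339 for EE against MASH, 2563 for EE against control and 3559 for any group. Leaving out both libraries called 67, 589 and 1106 for these and 1060 for resmetirom against control. DESeq2 called 28 for EE against MASH and 657 for resmetirom against MASH. The EE and MASH livers alone gave 745 calls, 2746 with the block, 323 with offsets and 1728 with both. Over all genes the calls ranged with a liver left out from 0 to 6 for MASH against control, 0 to 1 for EE against MASH, 1 to 431 for resmetirom against MASH, 0 to 69 for EE against control, 127 to 684 for resmetirom against control and 7 to 138 for EE against resmetirom. Under the other alternatives they ranged from 0 to 564 for MASH against control, 0 to 2746 for EE against MASH, 0 to 835 for resmetirom against MASH, 0 to 2563 for EE against control, 0 to 2136 for resmetirom against control and 3 to 417 for EE against resmetirom.

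Outside EE and MASH, no comparison had all its equally numbered livers correlated above 0.1 (r from -0.341 to 0.26), so there the numbers were not taken to pair the livers. The replicate block in all 12 livers ended the call of Elovl6 for EE against control (adjusted p = 0.0587) and changed no other call of a member.

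The turned log2 fold changes follow. For EE against control Acaca was 0.053 with voom, 0.012 in the compared groups with the block, 0.032, 0.029 and 0.10 with offsets (all 12 livers, compared groups, compared groups with block), and -0.51 to 0.33 with a liver left out. Acly was 0.060 with voom. Acss2 was 0.13 with voom, 0.014 without a filter, 0.078 with the block, 0.081 in the compared groups with the block, and -0.34 to 0.28 with a liver left out. Srebf1 was -0.0033 with upper quartile scaling, -0.0078 without scaling factors, -0.20 with quality weights, -0.020 with a filter at 1 CPM, -0.0022 in the compared groups, -0.22 without both libraries, -0.13, -0.13 and -0.087 with offsets, and -0.21 to 0.20 with a liver left out.

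For MASH against control quality weights gave -0.031 for Acaca, -0.42 for Acly, -0.017 for Fasn, -0.099 for Acss2 and -0.18 for Acacb. Leaving out both libraries gave -0.029 for Acaca, -0.45 for Acly, -0.13 for Acss2 and -0.023 for Acacb. No scaling factors gave 0.087 for Mlxipl, 0.075 for Scd1 and 0.10 for Elovl6, and offsets gave -0.014 for Acly in all 12 livers and in the compared groups. With a liver left out the ranges were -0.034 to 0.82 for Acaca, -0.026 to 0.79 for Acacb, -0.45 to 0.54 for Acly, -0.14 to 0.48 for Acss2, -0.50 to 0.055 for Scd1 and -0.35 to 0.011 for Elovl6.

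For EE against MASH Mlxipl was -0.24 without scaling factors, -0.023, -0.036 and -0.048 with offsets, and -0.035 to 0.18 with a liver left out. For resmetirom against MASH quality weights gave 0.20 for Mlxipl, 0.17 for Acaca and 0.14 for Acacb, leaving out both libraries gave 0.083 for Acaca, and with a liver left out the ranges were -0.51 to 0.13 for Mlxipl, -0.49 to 0.080 for Acaca and -0.35 to 0.77 for Acss2. For resmetirom against control they were -0.22 to 0.63 for Acaca, -1.41 to 0.15 for Acacb and -0.17 to 0.94 for Acss2.

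For EE against resmetirom quality weights gave -0.095 for Mlxipl and -0.31 for Scd1, and leaving out both libraries -0.0029 for Scd1. Acacb was 0.26 with voom, 0.19 with the block, 0.27 in the compared groups with the block, and 0.059, 0.054 and 0.46 with offsets. With a liver left out the ranges were -0.068 to 0.57 for Mlxipl, -0.56 to 0.011 for Acaca, -0.75 to 0.018 for Fasn, -0.97 to 0.14 for Acss2, -0.11 to 1.90 for Scd1 and -0.54 to 1.01 for Acacb.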
